A study of Mus musculus with 6 samples.

Results

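Zdhhc9, Golga7 and 8 other palmitoyltransferase genes (Zdhhc2, Zdhhc3, Zdhhc4, Zdhhc5, Zdhhc6, Zdhhc7, Zdhhc13 and Zdhhc14) were described here, 10 of the 19938 genes measured. Zdhhc9 was chosen by its higher values with valproic acid (VPA) in these same arrays, and Golga7 because its product is the partner of Zdhhc9, so the VPA minus control values of the 10 genes are a description. Where a call of the fit over all genes is stated for one of them, it is given without its p and supports nothing. Each of the 10 had exactly 1 probe set, a group of probes summarised into 1 value, annotated to it alone. The samples were 3 VPA-treated and 3 control samples that the sample titles and the series design call murine prostate cancer cells, each on its own Affymetrix mouse Gene 1.0 ST array. VPA, a small carboxylic acid used against epilepsy, inhibits class I histone deacetylases. The labels used here state no dose, duration or cell line. The other fields of the same samples name undifferentiated embryonic stem cells of strain Stra8-EGFP/Rosa26 for the VPA arrays and differentiated embryonic stem cells of strain 129SV for the control arrays. Nothing in the labels says that replicates came from separate cultures, so p-values measure the spread between these samples, which may be technical. The groups follow the titles, so treatment cannot be told apart from the difference in strain and cell type that those fields give.

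Protein S-palmitoylation attaches a fatty acid, usually palmitate, to cysteines through a thioester bond, which tethers proteins to membranes and can be reversed. The enzymes that add it carry a cysteine-rich domain with an Asp-His-His-Cys motif, from which the Zdhhc genes take their name, and thioesterases remove it. In human cells ZDHHC9 and GOLGA7 form a Golgi enzyme that acts on the Ras proteins HRAS and NRAS, and mutations of the X-linked human gene ZDHHC9 cause intellectual disability.

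The 6 arrays were close to each other. Their medians over all probe sets lay between 7.15 and 7.18 on the log2 scale, and correlations over genes were 0.995 to 0.996 between arrays of the same group and 0.990 to 0.995 between arrays of different groups. VPA replicate 3 correlated as highly with control replicate 3 (0.995) as with VPA replicate 1 (0.995), and control replicate 2 as highly with VPA replicate 2 (0.995) as with control replicate 3 (0.995), so results that rest on these 2 arrays are given with and without them. Marker genes of the labelled cells were also read. None of 8 measured prostate epithelial genes and none of 6 pluripotency genes passed the test, beside 2.34% of all genes. Their values ran from 3.41 to 7.99 and from 4.13 to 11.71. Values of 6 fibroblast genes, a cell type that the labels do not name, ran from 7.96 to 14.13, and none passed. RMA gives no detection call, so these values do not settle which cells were present. Pou5f1 had 4.99, 5.503 and 5.31 in VPA arrays and 5.47, 5.57 and 5.86 in control arrays, whereas Sox2 had 10.98, 11.25 and 11.53 in VPA arrays and 11.53, 11.48 and 11.71 in control arrays. Nanog, Zfp42, Dppa5a and Utf1 lay between 4.13 and 6.72, so Sox2 alone set the upper end of the range of the pluripotency genes. The VPA minus control differences of all 6 pluripotency genes were negative, as were 11684 of the 19938 differences over all genes. In such bulk RNA fewer cells of a type and less RNA per cell cannot be told apart.

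Zdhhc9 (probe set 10604380, X chromosome) had log2 values of 10.15, 9.95 and 9.52 in VPA replicates 1, 2 and 3, against 7.99, 9.09 and 8.31 in control replicates 1, 2 and 3. The groups did not overlap, but the lowest VPA array lay only 0.43 above the highest control array, control replicate 2. The mean was 9.87 ± 0.32 in VPA arrays and 8.46 ± 0.56 in control arrays (SD, n = 3 each), a log2 difference of 1.41 (SE 0.256) or 2.65-fold. Only 5 of the 19938 genes had a larger VPA minus control difference. Zdhhc9 also varied widely within groups. The control arrays spanned 1.10 and the VPA arrays 0.63 on the log2 scale, and its pooled within-group SD of 0.46 stood at percentile 99.4 of all genes, a measure that does not use the difference between groups.

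In limma's fit over all genes, with a call at an adjusted p under 0.05, Zdhhc9 was the 1 gene of the 10 called, higher with VPA, where 1.71% of all genes were called higher and 0.632% lower. Nothing is read from that count, since the call is what chose Zdhhc9. The Zdhhc9 difference depended on single arrays: it was 1.27 without VPA replicate 1, 1.37 without VPA replicate 2, 1.17 without control replicate 1 and 1.33 without control replicate 3, and the call ended in each of these 4 cases. It was 1.59 without VPA replicate 3, 1.72 without control replicate 2 and 1.90 without both of these arrays, with the call in place. In Zdhhc9 these were the lowest VPA and the highest control array, so leaving them out could only widen the difference. The call also ended at an unchanged difference of 1.41 with a trended and robust prior or with all probe sets tested.

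**Figure D1:**
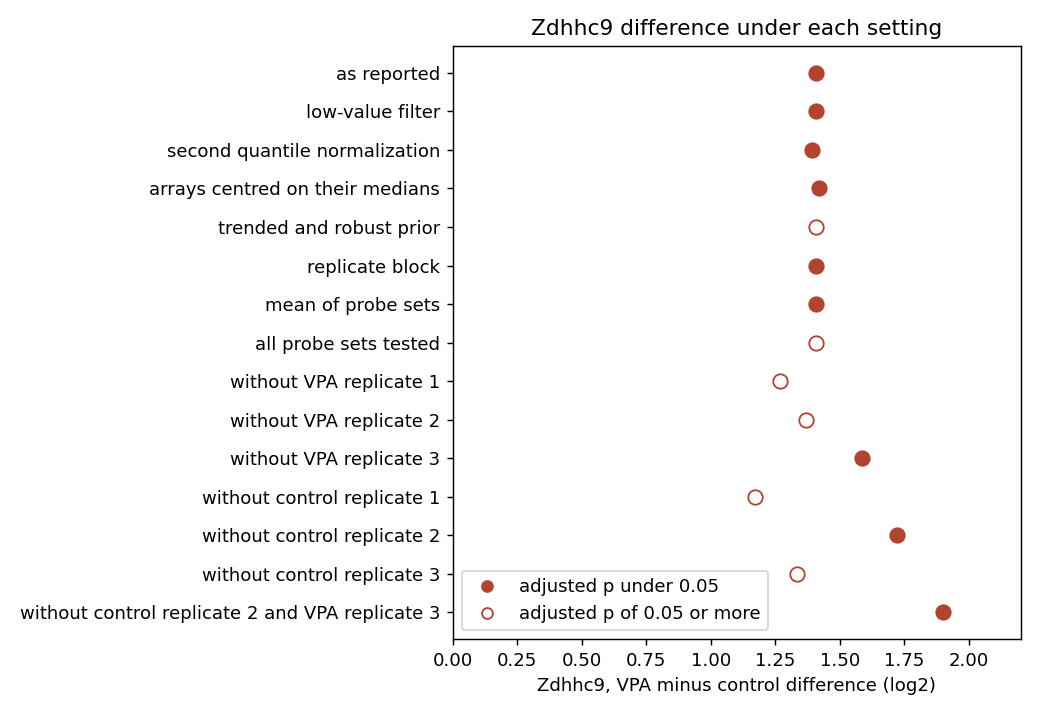
The x axis gives the VPA minus control difference of Zdhhc9 in log2 units and each line of the y axis is a setting or a left-out array. Filled points passed the adjusted p threshold of 0.05 and open points did not. All differences lie between 1.17 and 1.90, and the open points include those without VPA replicate 1, VPA replicate 2, control replicate 1 or control replicate 3.

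Golga7 (probe set 10577633, chromosome 8), whose product stabilises the Zdhhc9 enzyme, showed no such separation. Its log2 values were 10.35, 10.64 and 10.63 in VPA arrays, against 10.40, 10.52 and 10.63 in control arrays. The groups overlapped over nearly their whole range. The difference was 0.023 (SE 0.107), with a 95% interval from -0.22 to 0.26, and leaving out arrays gave values from -0.035 to 0.12. Over the 6 arrays the Pearson correlation of Golga7 with Zdhhc9 was 0.020, a description over arrays that share one normalization and fall into 2 groups.

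**Figure D2:**
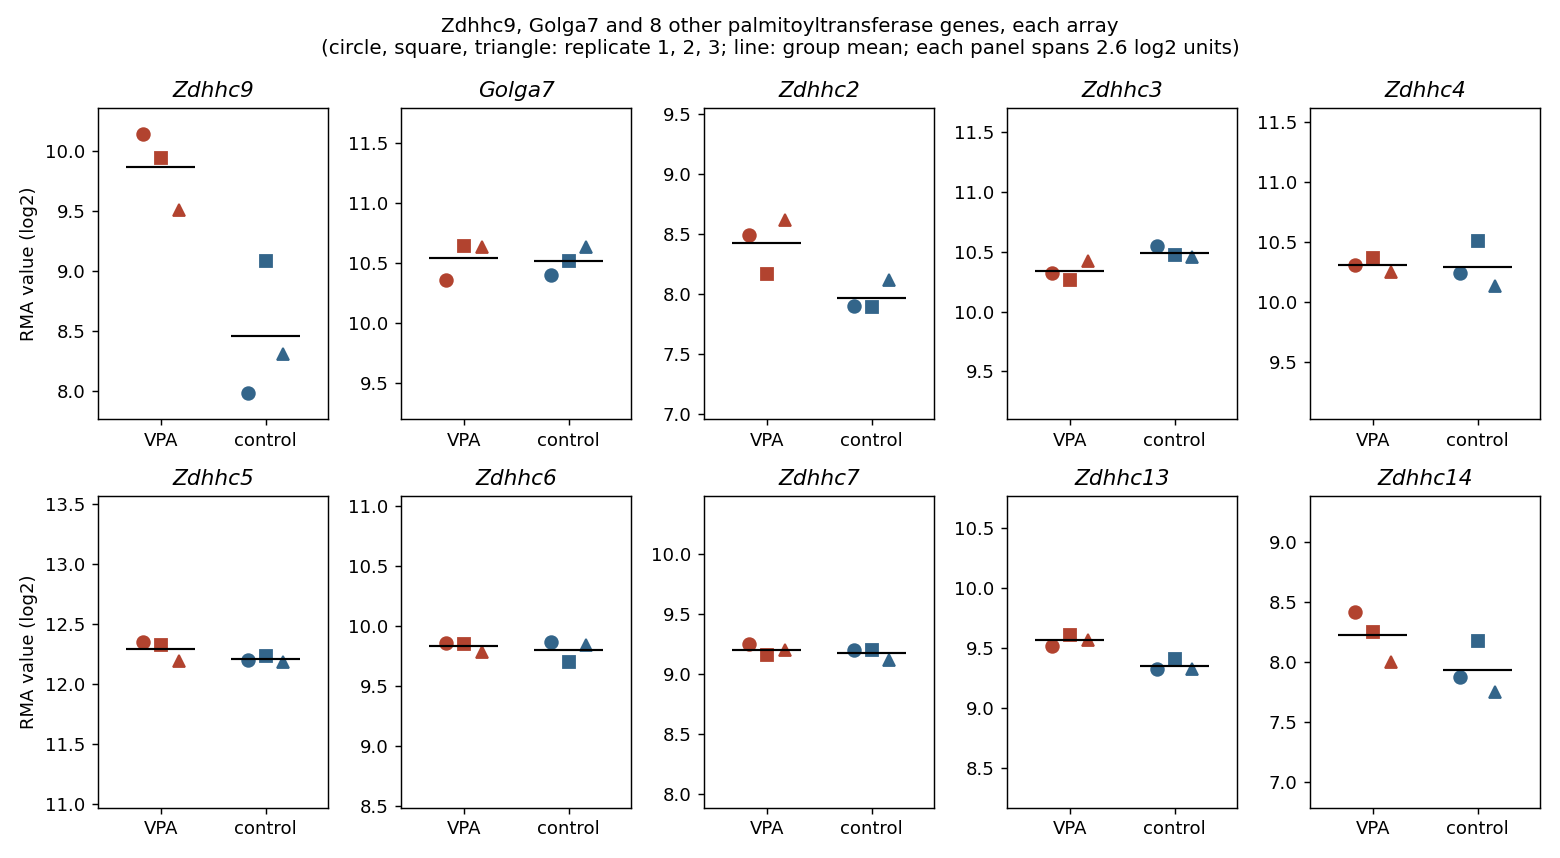
Each panel gives 1 gene, with VPA arrays left of control arrays and the RMA value on the log2 scale on the y axis; each panel spans the same range around its own midpoint, symbols mark replicates 1 to 3 and lines mark group means. Zdhhc9 shows the widest gap and the widest spread of the 10 panels, with control replicate 2 at 9.09 below the lowest VPA array at 9.52.

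To show the DNA before the Zdhhc9 start site, the 250 bases upstream of it were taken from RefSeq promoter sequences (GRCm38.p6), together with those of Zdhhc5, which held the same number of each motif searched. A promoter sequence was at hand for 5 of the 10 genes, Zdhhc9, Zdhhc3, Zdhhc5, Zdhhc6 and Zdhhc7. Capitals mark the motifs found on either strand, 5′ to 3′ along the gene. The motifs searched were the GC box GGGCGG, the CCAAT box CCAAT, the TATA box TATAAA, the CRE TGACGTCA and the E-box CACGTG, with overlapping matches counted.
Zdhhc9, chrX:48208703-48208952, minus strand: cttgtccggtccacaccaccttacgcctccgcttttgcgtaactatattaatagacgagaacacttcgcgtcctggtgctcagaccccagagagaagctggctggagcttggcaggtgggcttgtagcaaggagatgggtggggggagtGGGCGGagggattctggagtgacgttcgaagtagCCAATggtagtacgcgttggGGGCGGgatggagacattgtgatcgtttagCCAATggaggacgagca
Zdhhc5, chr2:84715165-84715414, minus strand: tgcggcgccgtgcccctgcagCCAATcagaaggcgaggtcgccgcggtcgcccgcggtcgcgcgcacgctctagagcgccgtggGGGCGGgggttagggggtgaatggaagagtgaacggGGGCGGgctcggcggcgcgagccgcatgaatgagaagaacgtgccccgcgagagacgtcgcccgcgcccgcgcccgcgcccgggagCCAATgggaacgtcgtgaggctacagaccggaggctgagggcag
The Zdhhc9 window held 2 GC boxes and 2 CCAAT boxes and no match to the other 3 motifs, and so did the Zdhhc5 window. A GC box was found in 32.7% and a CCAAT box in 33.8% of 32851 promoter windows of this length. The TATA box, the CRE and the E-box were found in 12.4%, 1.5% and 6.0% of them. The windows differed in composition. The Zdhhc9 window had a GC content of 56.4% with 15 CpG dinucleotides and the Zdhhc5 window 73.2% with 39, against medians of 52.4% and 6.0 over all windows. Zdhhc5 differed between VPA and control arrays by 0.083 on the log2 scale and Zdhhc9 by 1.41. Whether these motifs bear on either difference was not tested. Of the others, Zdhhc3 had 1 GC box and 1 E-box, and Zdhhc6 and Zdhhc7 held none of the 5 motifs in this window.

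Zdhhc2 and Zdhhc14 had the next largest differences of the 10 genes. Zdhhc2 (probe set 10571399, chromosome 8), an enzyme of the plasma membrane and endosomes that acts on the synaptic scaffold PSD-95 and on CKAP4, had 8.49, 8.17 and 8.62 in VPA arrays, against 7.90, 7.90 and 8.11 in control arrays. The groups did not overlap, though VPA replicate 2 lay only just above control replicate 3. The difference was 0.45 (SE 0.125), or 1.37-fold, and it was not called, though it was with the replicate number as a block. Zdhhc14 (probe set 10441422, chromosome 17), which belongs with Zdhhc9 to the Erf2-like branch of the family, had 8.42, 8.25 and 7.998 in VPA arrays, against 7.87, 8.17 and 7.75 in control arrays. Control replicate 2 lay above VPA replicate 3, so the groups overlapped. The difference was 0.29 (SE 0.138). Without control replicate 2 and VPA replicate 3 together it was 0.52, and Zdhhc14 was then called. This pair was picked after the data were seen. In Zdhhc14 these were the highest control and the lowest VPA array, so leaving them out could only widen the difference.

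Zdhhc14 shared part of the order of the arrays with Zdhhc9: VPA replicate 1 was the highest of the VPA arrays and replicate 3 the lowest, and control replicate 2 was the highest of the control arrays. The lowest control array was replicate 3 in Zdhhc14 and replicate 1 in Zdhhc9. The Pearson correlation of the 2 genes over the 6 arrays was 0.88. Control replicate 2 was the highest control array in 5 of the 10 genes, against 33% of all genes, and VPA replicate 3 the lowest VPA array in 5 of the 10, against 32.5% of all genes. With 10 genes such counts are a description only.

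Zdhhc13 (probe set 10553336, chromosome 7), an enzyme with ankyrin repeats related to Zdhhc17, had 9.52, 9.61 and 9.57 in VPA arrays, against 9.33, 9.41 and 9.33 in control arrays. The groups did not overlap and both were tight. The difference was 0.21 (SE 0.0811), or 1.16-fold, and it was not called. Its pooled SD of 0.047 lay at percentile 4.49 of all genes, at the other end from Zdhhc9. Zdhhc3 (probe set 10597920, chromosome 9), a Golgi enzyme, had 10.32, 10.26 and 10.42 in VPA arrays, against 10.54, 10.47 and 10.46 in control arrays. All 3 VPA arrays lay below the control arrays, the reverse of Zdhhc9. The difference of -0.15 (SE 0.0849) was not called.

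The remaining 4 transferases overlapped between groups. Zdhhc5 (probe set 10484440, chromosome 2), an enzyme of the plasma membrane, had 12.35, 12.32 and 12.19 in VPA arrays, against 12.20, 12.23 and 12.18 in control arrays, a difference of 0.083 (SE 0.0836). Zdhhc4 (probe set 10535458, chromosome 5), which with Zdhhc5 has been tied to palmitoylation of the fatty acid receptor Cd36, had 10.30, 10.37 and 10.25 in VPA arrays, against 10.24, 10.51 and 10.13 in control arrays, a difference of 0.013 (SE 0.108). In Zdhhc4 control replicate 2 was the highest of all 6 arrays, and leaving out arrays moved the difference from -0.068 to 0.15. Zdhhc6 (probe set 10468584, chromosome 19), an enzyme of the endoplasmic reticulum that acts on calnexin, had 9.86, 9.85 and 9.78 in VPA arrays, against 9.86, 9.70 and 9.84 in control arrays, a difference of 0.029 (SE 0.0850). Zdhhc7 (probe set 10582171, chromosome 8), a Golgi enzyme closely related to Zdhhc3, had 9.25, 9.16 and 9.19 in VPA arrays, against 9.20, 9.19 and 9.12 in control arrays, a difference of 0.030 (SE 0.0807). The 95% intervals of these 4 differences reached no further than 0.27 in size on the log2 scale.

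Over the 10 genes, 3 had all VPA arrays above all control arrays (Zdhhc9, Zdhhc2 and Zdhhc13) and 1 had all below (Zdhhc3), where 11.1% of all genes were separated upwards, 12% downwards and 23.1% in either direction. The median difference was 0.056 over the 10 genes and 0.030 without Zdhhc9, beside -0.035 over all genes.

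The 15 Zdhhc genes outside this set were tested in the same fit. None of them was called, beside 1.71% of all genes called higher and 0.632% lower, and 1 had an unadjusted p under 0.05. That gene was Zdhhc20, a plasma membrane enzyme known to act on the EGF receptor, at 10.20, 10.37 and 10.34 in VPA arrays, against 9.82, 10.005 and 9.88 in control arrays. The groups did not overlap. The difference was 0.40 (SE 0.0921) and the adjusted p of limma over all genes 0.0567. It passed with a filter on low values (adjusted p 0.0404), with a trended and robust prior (0.0378) and with the replicate block (0.0247). The 2 other Zdhhc20 probe sets, with group means between 4.94 and 6.62, differed by -0.073 and -0.057, and the mean of the 3 gave a difference of 0.091. The other 14 genes overlapped between the groups and had adjusted p from 0.392 to 0.967.

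Among these 14, Zdhhc16, a transferase of the endoplasmic reticulum, had the highest difference, 0.20 (SE 0.113), and Zdhhc18, a Golgi enzyme of the Erf2-like branch, the lowest, -0.16 (SE 0.100). Zdhhc15, the other X-linked gene of the family, had 8.14, 7.78 and 8.09 in VPA arrays, against 7.77, 7.86 and 7.98 in control arrays, a difference of 0.13 (SE 0.113). Zdhhc17, which palmitoylates huntingtin, differed by -0.042, Zdhhc21 by -0.066 and Zdhhc8 by 0.012. Zdhhc19 differed by -0.15, Zdhhc23 by -0.11, Zdhhc12 by -0.092, Zdhhc11 by -0.081 and Zdhhc25 by -0.069. Zdhhc22 differed by 0.047, Zdhhc24 by 0.011 and Zdhhc1 by -0.012. Zdhhc17 and Zdhhc22 each had a second probe set, at -0.22 and -0.19, so that for Zdhhc22 the 2 probe sets pointed in opposite directions. Over all 24 Zdhhc genes, 14 differences were positive and 10 negative, beside 8254 positive and 11684 negative over all genes. Without Zdhhc9 the differences of the Zdhhc genes ran from -0.16 to 0.45.

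**Figure D3:**
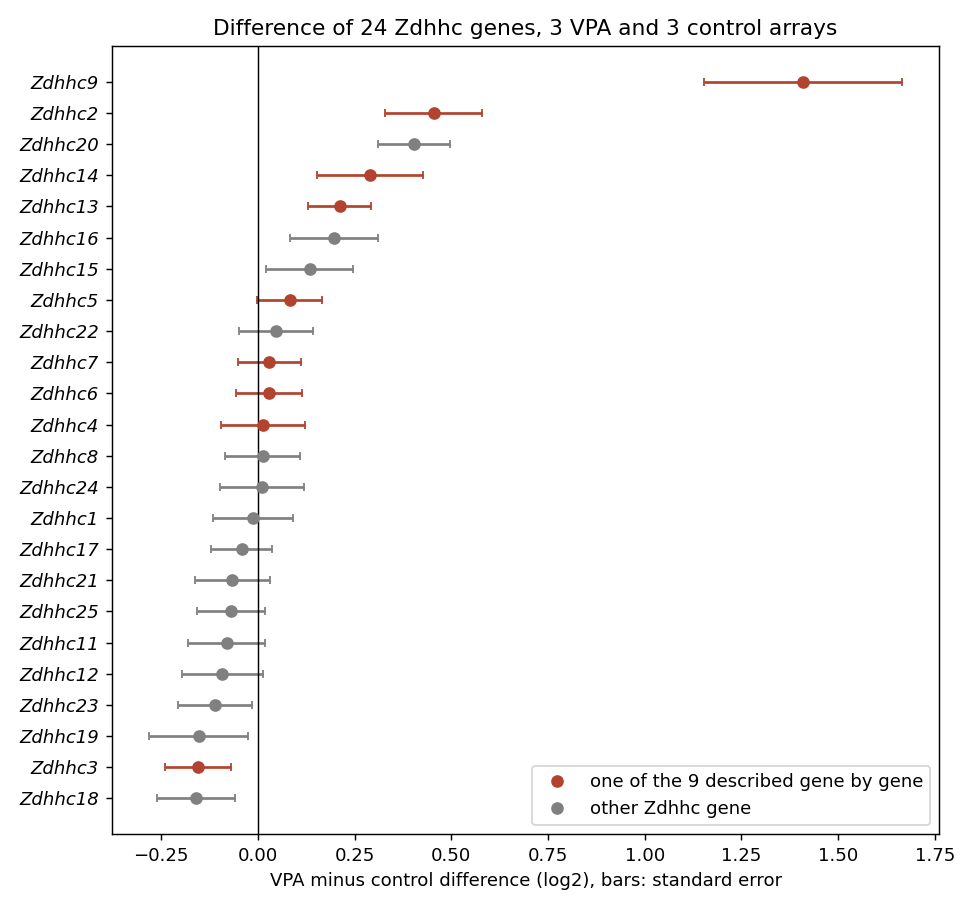
The x axis gives the VPA minus control difference in log2 units with its standard error as a bar, for 24 Zdhhc genes sorted by difference on the y axis; red marks the 9 Zdhhc genes described gene by gene and grey the 15 others. Zdhhc9 at 1.41 stands apart from the others, which lie between -0.16 and 0.45.

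Other genes of protein palmitoylation were taken from lists of general knowledge, chosen with earlier results of these arrays known. Of 73 measured genes outside the 10 and outside the family, 3 rose, 2 fell and 68 did not pass, which is 6.85% called beside 2.34% of all genes. The median difference was 0.023, beside -0.035 over all genes. Testing all probe sets gave a count of 0. The count was 2 when either of VPA replicates 1 and 2, or either of control replicates 1 and 3, was left out. It was 10 without both control replicate 2 and VPA replicate 3, a pair picked after the data were seen.

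Of the other accessory proteins, Golga7b, a relative of Golga7, differed by -0.12 (SE 0.106, adjusted p = 0.568) and Selenok, the selenoprotein that works with Zdhhc6, by 0.013 (SE 0.0846, adjusted p = 0.9498). Among the 9 depalmitoylating enzymes none was called in limma's fit, beside 2.34% of all genes, and 1 had an unadjusted p under 0.05. That was Ppt1, the lysosomal palmitoyl-protein thioesterase, at 11.95, 11.93 and 11.80 in VPA arrays, against 11.47, 11.65 and 11.53 in control arrays. The groups did not overlap, with a difference of 0.35 (SE 0.08996, adjusted p = 0.0848). Ppt1 passed with the trended and robust prior (adjusted p 0.0433) and without both control replicate 2 and VPA replicate 3 (0.0438). In Ppt1 these were the highest control and the lowest VPA array, so leaving them out could only widen its difference. Lyplal1 differed by 0.34 with overlapping groups. The cytosolic thioesterase genes Lypla1 and Lypla2 differed by 0.028 and 0.014, and Ppt2 by -0.029. The membrane-bound hydrolases Abhd17a, Abhd17b and Abhd17c differed by 0.022, -0.14 and 0.089, and Abhd10, a mitochondrial enzyme, by 0.0079.

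Of 37 measured genes whose products are palmitoylated, 3 rose, none fell and 34 did not pass (8.11% called, beside 2.34% of all genes), with a median difference of 0.014. Gap43, which encodes a growth cone protein, had 9.86, 10.30 and 9.97 in VPA arrays, against 8.54, 8.89 and 8.96 in control arrays. Every VPA array lay well above every control array, and the difference was 1.25 (SE 0.143, limma adjusted p = 0.00897). Stmn2, a microtubule regulator of neurons, had 7.84, 7.61 and 6.89 in VPA arrays, against 6.06, 6.02 and 6.26 in control arrays. VPA replicate 3 was the lowest of the VPA arrays, as in Zdhhc9, and the difference was 1.34 (SE 0.206, adjusted p = 0.0163). Cd36 had 8.61, 8.30 and 8.16 in VPA arrays, against 6.89, 7.18 and 7.11 in control arrays. The groups were again apart, by 1.296 (SE 0.128, adjusted p = 0.00702). Gap43 and Cd36 also passed in each fit that lacked 1 array, while Stmn2 did not pass without VPA replicate 1 (adjusted p 0.0580), VPA replicate 2 (0.0764), control replicate 1 (0.0733) or control replicate 3 (0.0534). None of the 3 passed with all probe sets tested (0.112 for Gap43 and Cd36 and 0.150 for Stmn2). Gap43 and Stmn2 are genes of neurons, and of 6 neuronal markers 3 rose, beside 1.71% of all genes: Syt1, Syp and Map2, by 0.78, 0.90 and 0.70 (adjusted p 0.00973, 0.0456 and 0.0415). The other 3 did not pass: Tubb3 differed by 0.45 (adjusted p 0.0550), Snap25 by 0.014 (0.960) and Rbfox3 by -0.14 (0.425). The summed linear level of these 6 markers ran from 4569 to 5344 in VPA arrays and from 2734 to 3269 in control arrays. That sum rests mostly on Syt1 and Map2, with log2 means of 11.37 and 10.79 in VPA arrays and 10.59 and 10.08 in control arrays. The other markers had group means of at most 7.87. The neuronal nuclear marker Rbfox3 had 6.56, 6.45 and 6.57 in VPA arrays and 6.68, 6.596 and 6.70 in control arrays. The part of these 6 markers in the differences of Zdhhc9, Gap43 and Stmn2 was not tested.

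There were 10 measured genes of Ras proteins and of the enzymes and carriers that process their lipids. None of these was called in limma's fit, beside 2.34% of all genes, and 1 had an unadjusted p under 0.05. Of the Ras substrates of the Zdhhc9 enzyme named above, Nras was measured and Hras is not analysed here. Nras had 10.82, 10.90 and 11.04 in VPA arrays, against 11.04, 11.03 and 11.35 in control arrays. The groups overlapped, at a difference of -0.22 (SE 0.111, adjusted p = 0.336). Fnta, a subunit of the enzyme that farnesylates Ras, differed by 0.27 (SE 0.0886, adjusted p = 0.151).

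Of 12 measured genes that supply or consume palmitoyl-CoA, none rose, 1 fell and 11 did not pass, beside 1.71% of all genes called higher and 0.632% lower. Acsl5, an acyl-CoA synthetase gene, had 10.27, 10.56 and 10.71 in VPA arrays, against 11.10, 11.14 and 11.23 in control arrays. The VPA arrays were all lower, by -0.65 (SE 0.117, adjusted p = 0.0275). Of 5 genes for other protein acyltransferases, Hhat fell, none rose and 4 did not pass, beside the same shares. Hhat, which attaches palmitate to Hedgehog proteins, had 6.51, 6.65 and 6.69 in VPA arrays, against 7.14, 7.01 and 6.98 in control arrays. The difference was -0.43 (SE 0.0901, adjusted p = 0.0455). Acsl5 did not pass without VPA replicate 1 (adjusted p 0.0801), VPA replicate 2 (0.0915), control replicate 1 (0.0989) or control replicate 3 (0.0965). Hhat did not pass without VPA replicate 1 (0.169), VPA replicate 2 (0.139), control replicate 1 (0.174), control replicate 2 (0.0667) or control replicate 3 (0.0979). With all probe sets tested neither passed (0.166 for Acsl5 and 0.183 for Hhat).

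**Figure D4:**
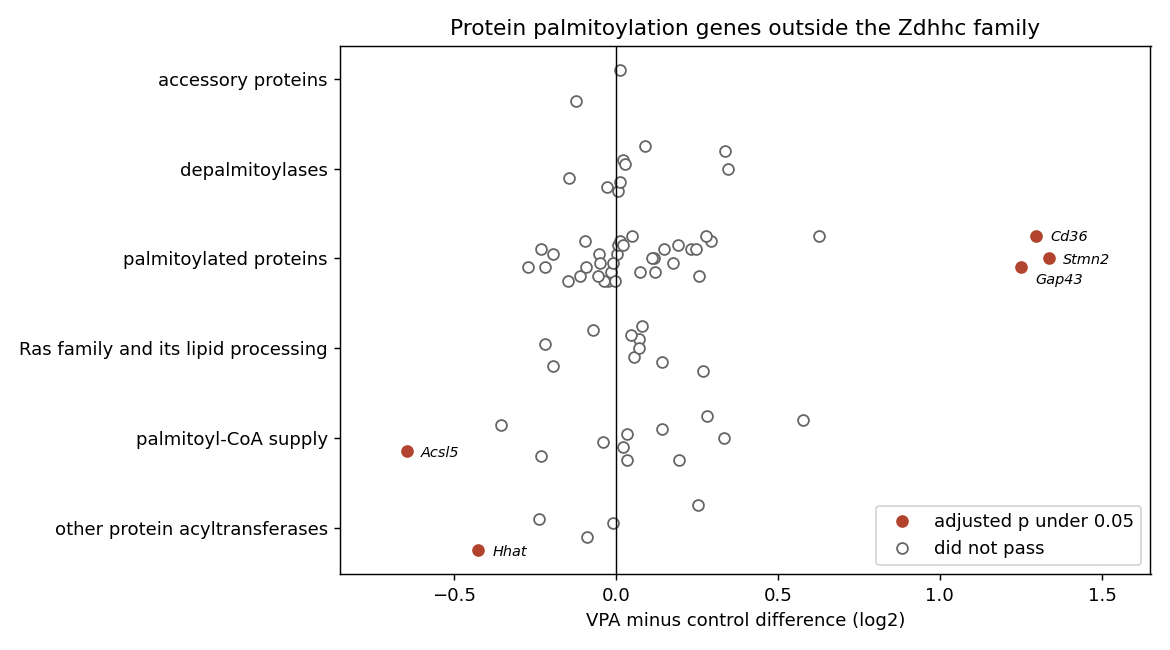
The x axis gives the VPA minus control difference in log2 units and each point is 1 gene, set in rows by list on the y axis with a small vertical offset for legibility; a gene of 2 lists appears in both. Filled points passed an adjusted p of 0.05. Cd36, Stmn2 and Gap43 lie between 1.25 and 1.34, and Acsl5 and Hhat lie at -0.65 and -0.43.

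Ccnd2, the cyclin D2 gene of the study's title, had 11.10, 10.55 and 10.40 in VPA arrays, against 8.97, 9.73 and 9.32 in control arrays. Control replicate 2 was the highest control array and VPA replicate 3 the lowest VPA array, as in Zdhhc9. Genes of the sex chromosomes were read too, since Zdhhc9 is X-linked and the labels name different strains. Xist had 5.42, 5.34 and 5.19 in VPA arrays and 5.41, 5.22 and 5.45 in control arrays. The Y-linked gene Kdm5d had 9.17, 9.10 and 9.12 in VPA arrays and 9.16, 9.23 and 9.09 in control arrays. Neither separated the groups. Eif2s3y differed by 0.083 with overlapping groups. Uty had 8.85, 9.09 and 9.25 in VPA arrays and 9.33, 9.33 and 9.42 in control arrays. All VPA arrays of Uty lay below its control arrays, at a difference of -0.30, where 12% of all genes were separated downwards. None of these 4 sex chromosome genes passed (adjusted p from 0.184 to 0.879), beside 2.34% of all genes called.

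The 3 measured genes nearest to Zdhhc9 on each side of the X chromosome, in RefSeq gene order of GRCm38.p6, were named by position and not by value. None of the 6 was called, beside 2.34% of all genes. Bcorl1, the gene of a transcriptional corepressor and the second gene towards higher coordinates, had 9.02, 9.004 and 8.94 in VPA arrays, against 8.37, 8.84 and 8.45 in control arrays. The groups were apart, control replicate 2 was again the highest control array, and the difference was 0.44 (SE 0.124, adjusted p = 0.104). Elf4 differed by 0.21 and Xpnpep2 by 0.17, both with all VPA arrays above all control arrays, as in 11.1% of all genes. Apln differed by -0.29 with all VPA arrays below all control arrays, as in 12% of all genes. Utp14a and Sash3 differed by 0.057 and -0.19, with overlapping groups. Adjusted p for these 5 lay between 0.151 and 0.759. Over the whole X chromosome, 36 of 742 genes (4.85%) were called, 31 of them higher with VPA (4.18%), beside 431 of 19166 autosomal genes (2.25%), 310 of them higher (1.62%). The difference between these shares was not tested. The X-linked count was 4 of 20 calls without control replicate 1 and 10 of 71 without control replicate 3. It was 8 of 66 without VPA replicate 1, 8 of 72 without VPA replicate 2 and 1 of 2 with all probe sets tested. Without VPA replicate 3 the count was 48 of 815, without control replicate 2 37 of 515 and without both 73 of 1349. With the replicate block it was 72 of 1199.

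The 5 genes with the highest Pearson correlation with Zdhhc9 over the 6 arrays, predicted and unnamed genes left out, were Tpp1, Impdh1, Fbxo25, Smpd1 and Dcun1d4, at 0.996 to 0.997. Tpp1 encodes a lysosomal peptidase, Smpd1 the lysosomal acid sphingomyelinase, Impdh1 an enzyme of guanine nucleotide synthesis, Fbxo25 an F-box protein and Dcun1d4 a protein of cullin neddylation. They were picked as the extremes of all genes, and 494 genes other than Zdhhc9 reached 0.95. The 6 arrays share one normalization and fall into 2 groups, and such a correlation includes the difference between the groups. Zdhhc9 had a larger difference than any of the 5: Dcun1d4 differed by 0.77 (SE 0.146), Fbxo25 by 0.47, Impdh1 by 0.43, Smpd1 by 0.33 and Tpp1 by 0.29. Dcun1d4 had 11.23, 11.16 and 10.84 in VPA arrays, against 10.07, 10.58 and 10.27 in control arrays, the same order of arrays as Zdhhc9. Of the 10 genes described gene by gene, Zdhhc13 correlated with Zdhhc9 at 0.90, Zdhhc5 at 0.80, Zdhhc2 at 0.65 and Zdhhc3 at -0.88.

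**Figure D5:**
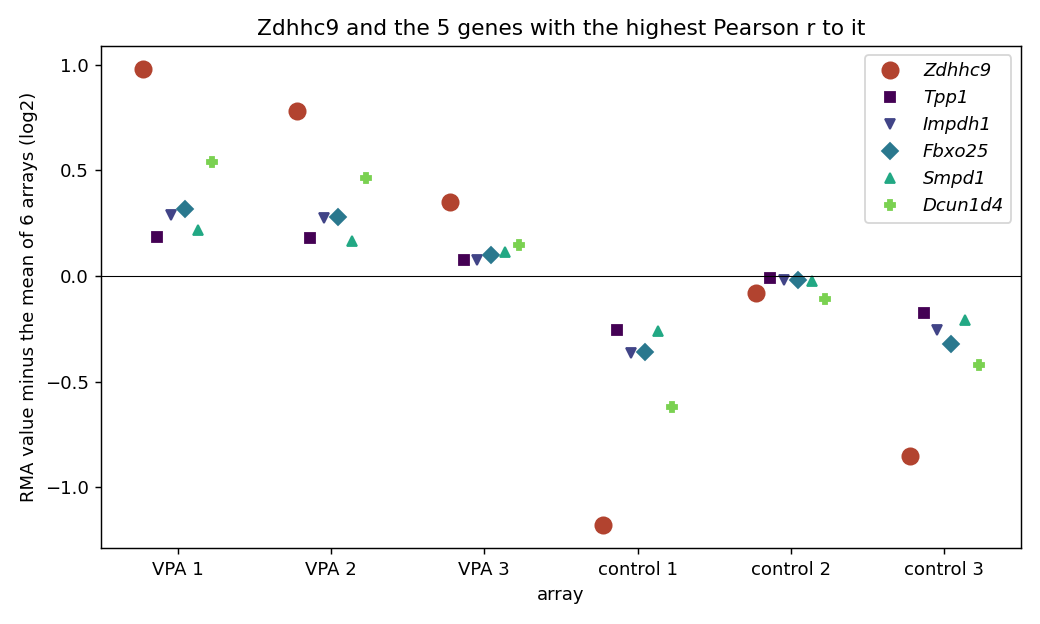
The y axis gives each gene's RMA value minus its own mean over the 6 arrays, in log2 units, for the VPA arrays on the left and the control arrays on the right; each symbol is 1 gene in 1 array. All 6 genes are above their mean in the VPA arrays and below it in the control arrays, with control replicate 2 the highest of the control arrays, and Zdhhc9 has the widest range.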

How the data were processed

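Biotin-labelled total RNA of 3 VPA and 3 control samples was hybridised to Affymetrix Gene 1.0 ST arrays, per the labels' protocols. The deposited log2 values are the authors' RMA output; the submitters' processing notes name Affymetrix Expression Console, and no version or build was found in the sources used. RMA equalises the arrays' distributions, so a shift of most transcripts would not show. The number of arrays limits the precision.

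Of 35556 probe sets, 21789 had exactly 1 symbol in the platform annotation, 1621 several and 12146 were not listed. The probe set with the highest mean over the 6 arrays was kept for each of 19938 genes. Differences are VPA minus control from lmFit and eBayes of limma 3.58.1 (R 4.3.3), two-sided, with Benjamini-Hochberg adjustment over all genes and calls at an adjusted p under 0.05. The fit was tested on simulated data. All 10 members passed the low-value filter (log2 6 or more on 3 or more arrays).

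The members and lists were chosen with earlier results of these data known. Named were all members, Zdhhc genes, accessory proteins, depalmitoylases and sex chromosome genes, Ccnd2, the 5 genes most correlated with Zdhhc9 and, from each other list, up to 3 called genes per direction or the 2 with the smallest p; Pou5f1, Sox2, the named neuronal markers and the neighbours of Zdhhc9 lie outside this rule. Alternatives were a low-value filter, a second quantile normalization, median centring, the replicate number as a block, a prior that is trended and robust, the mean of probe sets, all probe sets and leaving out each array. Leaving out control replicate 2 and VPA replicate 3 together, and the count of X-linked genes, were added after the data were seen. Promoter sequences came from RefSeq (GRCm38.p6).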

Additional observations from a re-analysis of the deposited data

How the results depend on the processing

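The Zdhhc9 difference kept its sign in all 14 alternatives and its call in 8. It was 1.41 with no call under the trended and robust prior and with all probe sets tested, and it ran from 1.17 to 1.90 when arrays were left out. The count of all called genes was 467, and it was 1199 with the replicate block, 2 with all probe sets tested and 20 to 1349 when arrays were left out (66, 72 and 815 for VPA replicates 1, 2 and 3, then 20, 515 and 71 for control replicates 1, 2 and 3, and 1349 for control replicate 2 with VPA replicate 3). Of the 10 members, 1 was called; the count was 0 with the trended and robust prior and with all probe sets tested, 2 with the replicate block, where Zdhhc2 was added, and 0 to 2 when arrays were left out, where Zdhhc14 was added without control replicate 2 and VPA replicate 3. Of the 15 other Zdhhc genes none was called, and 1, Zdhhc20, was with the low-value filter, the trended and robust prior or the replicate block. Of the 73 other palmitoylation genes 5 were called, 8 with the trended and robust prior, 8 with the replicate block, 0 with all probe sets tested and 2 to 10 when arrays were left out. The replicate numbers are shared by the groups. Deviations of same-numbered arrays correlated at 0.084, 0.451 and 0.284, and those of differently numbered arrays at -0.429 to 0.2. These values do not settle whether same-numbered arrays are pairs. The main fit left the replicate number out, and the replicate block was run as an alternative. Calls were followed only for Zdhhc9, Zdhhc20, Ppt1, Stmn2, Cd36, Gap43, Fnta, Nras, Acsl5, Hhat and Ccnd2. Of 738 single-gene values under alternatives, each 1 gene in 1 setting, 29 values of these followed genes lost a call and 5 gained one. Changes of call in other genes, as in Zdhhc2 and Zdhhc14, are not in these counts. Of the genes not followed for a call, 11 values moved by more than the spread between replicates. No called value turned its sign. Testing all probe sets adjusts over more tests and also refits the prior, and leaving out an array leaves fewer samples. The cause of these changes was not tested.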

Other observations

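In the 73 other palmitoylation genes control replicate 2 was the highest control array in 36 (49.3%) and VPA replicate 3 the lowest VPA array in 33 (45.2%), beside 33% and 32.5% of all genes. Over the 24 Zdhhc genes these counts were 10 and 11.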
